A study of Rattus norvegicus with 4 samples.

Results

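Intestinal macrophages were followed through 10 marker genes, Cd68, Aif1, Tyrobp, Csf1r, Cd163, Cd14, Fcgr2b, Fcer1g, Lgals3 and Gpnmb, in the colon of rats that received mesenchymal stem cells (MSCs). The genes were taken as a list by name, and the list was drawn up with earlier results of these data known. A row of the chip was matched by RefSeq accession to 8 of the 10 genes, each by 1 row with a value on every array, out of 6968 named genes and 18350 measured rows. No row was matched to Cd163 or Fcer1g, and they were not analysed here.

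The chips compared colon RNA of male rats of the control group and of the MSC transplantation (MSCT) group, with 2 one-color arrays per group. Each array is taken here as 1 rat, since nothing in the sources used here says that replicates share an animal. The MSCT rats are IBD rats in the labels. By the methods, the animals were Sprague Dawley rats, colitis was induced by 2,4,6-trinitrobenzene sulfonic acid (TNBS) instilled into the colon, and culture-expanded MSCs carrying green fluorescent protein were given once through the tail vein. Samples were cut from the lesion region. The control rats did not receive MSCs. They are described as normal in the sample labels and as IBD rats in the methods, so the values below set MSCT colon against a control colon whose inflammation is not settled. The age and the time of the chips are not settled either, since the sources give no age and name day 14 in one place and day 28 in another.

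Macrophages are the phagocytes of the gut wall. Most of those in the colon are renewed from blood monocytes, and they depend on the receptor Csf1r and its ligands for survival. They take up dead cells and bacteria, digest them in lysosomes, and sense immune complexes and bacterial products through surface receptors that signal through small adaptor proteins such as Tyrobp. Few of their markers are exclusive. Tyrobp is also used by natural killer cells and granulocytes, Fcgr2b by B cells, and Lgals3 is made by colonic epithelial cells as well. The measurement was made on whole tissue, so more macrophages and more RNA of these genes per macrophage cannot be told apart.

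In the MSCT group, 5 of the 8 measured marker genes were higher by more than 2-fold with an unadjusted limma p under 0.05. These cut-offs make up the screen used below. They are those of the study's methods for the chips, which do not name limma. The 5 genes were Tyrobp, Aif1, Cd68, Gpnmb and Csf1r, at 2.00-fold to 2.99-fold. Fcgr2b lay at 1.70-fold and did not pass, and Cd14 and Lgals3 lay at 0.972-fold and 1.10-fold. None of the 8 was lower past the screen. Over all rows, 2.12% passed the screen with the MSCT group higher and 2.51% with the MSCT group lower. Among the named genes, to which the markers belong, 3.13% passed as higher. The median difference of the 8 genes was 1.04 on the log2 scale, against 0.05 over all named genes and -0.02 over all rows.

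No marker gene passed an adjusted p of 0.05 over all rows by limma (smallest 0.260), nor did any row of the chip, although 880 rows were higher and 1316 lower at an unadjusted p under 0.05. The share of rows that were higher at this unadjusted p was 4.8%. By the methods' t-test, which is one-way analysis of variance for 2 groups, 4 of the 8 genes passed the screen as higher, Aif1 being the one lost, against 1.04% of all rows. After adjustment that test called 0 rows at 0.05. The smallest two-sided p of an exact permutation test is 0.33 with 2 arrays per group, which is why limma, with a variance shared between rows, was used.

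Tyrobp (NM_212525), also called DAP12, is the adaptor that carries the signals of TREM2 and other activating receptors through an immunoreceptor tyrosine-based activation motif (ITAM). Its intensity was 230 and 172 in control colon (replicate 1 first, here and below) and 571 and 620 in MSCT colon. Both MSCT arrays were above both control arrays, and the gap between the groups was wider than the spread within either. On the log2 scale the mean went from 7.64 ± 0.30 to 9.22 ± 0.08 (SD, n = 2 each). The difference of 1.58 (standard error 0.23) was the largest of the 8 genes (adjusted p = 0.260).

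Cd68 (NM_001031638) encodes a heavily glycosylated lysosomal membrane protein, the ED1 antigen by which rat macrophages are commonly stained. Its intensity was 1023 and 1147 in control colon and 2389 and 2942 in MSCT colon, again without overlap. The difference was 1.29 on the log2 scale (standard error 0.21, adjusted p = 0.260). Gpnmb (NM_133298) encodes a transmembrane glycoprotein of lysosomes that marks lipid-laden and repair-type macrophages. Its intensity was 1117 and 831 in control colon and 2059 and 1979 in MSCT colon. The 2 MSCT arrays lay close together and the control arrays further apart, and the difference was 1.07 (standard error 0.23, adjusted p = 0.294).

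Csf1r (NM_001029901) encodes the receptor for the growth factors Csf1 and Il34. Its intensity was 1228 and 1152 in control colon and 2332 and 2436 in MSCT colon. The replicates lay close together in both groups, with SDs of 0.06 for control and 0.04 for MSCT rats on the log2 scale. The difference of 1.00 (standard error 0.18) was 2.004-fold and so lay at the fold limit itself (adjusted p = 0.270). Aif1 (NM_017196), or Iba1, encodes an actin-binding protein of macrophages and microglia. Its intensity was 212 and 187 in control colon, and 371 and 740 in MSCT colon, which differed by 0.99 on the log2 scale. The groups did not overlap, and the difference was 1.39 with the largest standard error of the 8 genes (0.38, adjusted p = 0.338).

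Fcgr2b (NM_175756) encodes the inhibitory receptor for immunoglobulin G. Its intensity was 187 and 276 in control colon and 298 and 502 in MSCT colon. The MSCT arrays were both higher, but only by 0.11 on the log2 scale at the nearest point, less than the SD within either group (0.40 and 0.53). The difference was 0.77 (standard error 0.36, 95% interval -0.20 to 1.74, adjusted p = 0.491). The probes of Fcgr2b, Fcgr2a and Fcgr3a may share signal, since the genes are close in sequence, to an extent that cannot be read from these values.

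Cd14 (NM_021744) encodes the co-receptor that hands bacterial endotoxin to Tlr4. Its intensity was 9308 and 10814 in control colon and 8986 and 10578 in MSCT colon. The groups overlapped, and replicate 2 was the higher array in each. The difference was -0.04 (standard error 0.21), and its 95% interval, -0.60 to 0.52, leaves out a change of 2-fold in either direction. Lgals3 (NM_031832), or galectin-3, is a sugar-binding protein, known in macrophages as Mac-2. Its intensity was 15411 and 18935 in control colon and 18954 and 18557 in MSCT colon, with only control replicate 1 standing lower. The difference was 0.13 (standard error 0.21, 95% interval -0.42 to 0.69), and this interval too leaves out a change of 2-fold.

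**Figure D1:**
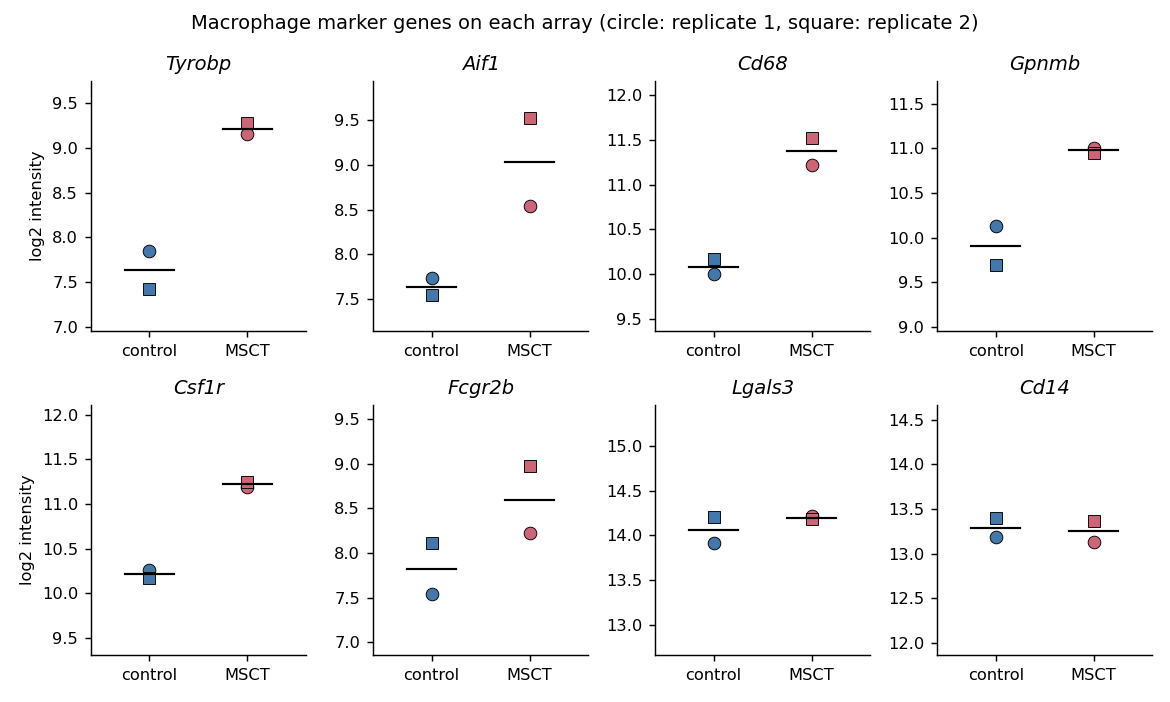
Log2 intensity of the 8 measured marker genes on each array, with the control group in blue, the MSCT group in red, circles for replicate 1, squares for replicate 2 and a line at each group mean. Each panel spans the same range of log2 units around its own gene. Tyrobp, Aif1, Cd68, Gpnmb and Csf1r show both red points well above both blue points, Fcgr2b shows a gap of 0.11, and the points of Lgals3 and Cd14 overlap.

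In 6 of the 8 genes both MSCT arrays were above both control arrays, as they were in 21.3% of all rows, and in none were both below. The replicate spread followed the brightness of the rows. Tyrobp, Aif1 and Fcgr2b were dim rows, at percentiles 25.9 to 29.3 of all rows by mean intensity, and the median SD between replicates was 0.31 among rows of that brightness (the second of 4 equal classes, from the dimmest). Csf1r, Cd68 and Gpnmb lay at percentiles 61.9 to 66.7, and Cd14 and Lgals3 at 96.1 and 98.9, in the brightest 25% of rows, where the median SD was 0.14. When the variance was allowed to depend on intensity (trend and robust options of limma), the 3 genes of middle brightness, Cd68, Csf1r and Gpnmb, passed an adjusted p of 0.05 over all rows, at 0.0130, 0.0259 and 0.0402, as 1.16% of all rows did in the same direction. The same 3 passed after the dimmer 50% of rows was left out, as did 1.38% of the rows kept, but that filter also removed Tyrobp, Aif1 and Fcgr2b.

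With each array left out in turn, Tyrobp and Cd68 passed the screen every time. Gpnmb failed only without control replicate 2, where its difference was 0.85, and Csf1r failed without control replicate 2 (0.96) and without MSCT replicate 2 (0.97). Aif1 passed in only 1 of the 4 fits, without MSCT replicate 1, and its difference ranged from 0.90 without MSCT replicate 2 to 1.89 without MSCT replicate 1. The count of marker genes past the screen was thus 4 without control replicate 1, 2 without control replicate 2, 6 without MSCT replicate 1 and 3 without MSCT replicate 2. Fcgr2b was the sixth gene, at 1.15 without MSCT replicate 1, and it differed by 0.49 without control replicate 1 and by 0.39 without MSCT replicate 2.

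**Figure D2:**
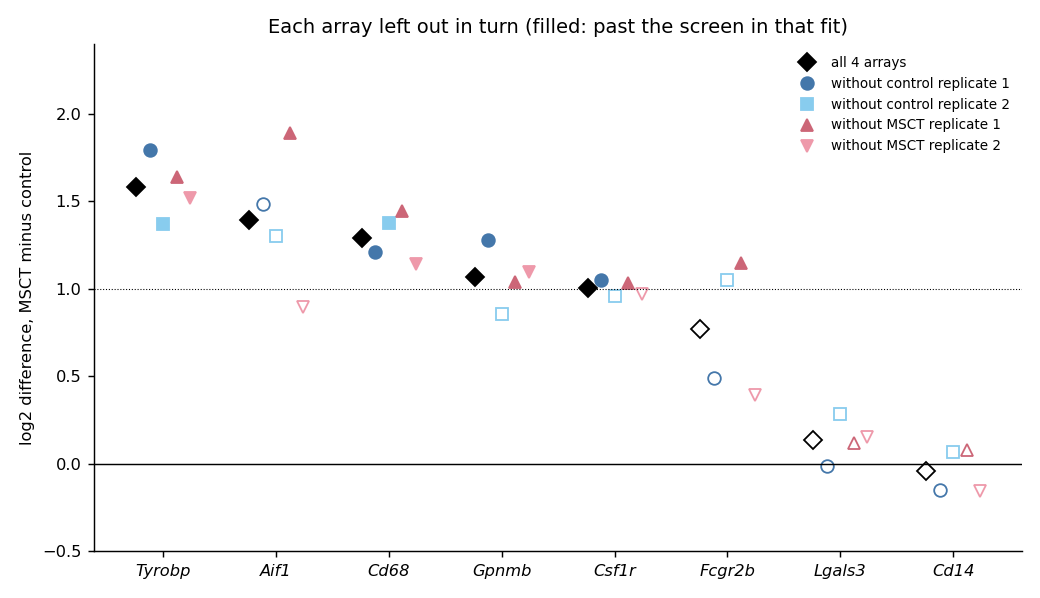
Log2 difference, MSCT minus control, of each marker gene with all 4 arrays (black diamond) and with each array left out (colored symbols), filled where the gene passed the screen in that fit. The dotted line marks 2-fold. Tyrobp and Cd68 are filled throughout, Csf1r sits at the dotted line, Aif1 is spread from 0.90 to 1.89, and Cd14 and Lgals3 stay between -0.16 and 0.28.

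Csf1r, Cd68 and Cd14 are known targets of PU.1, the transcription factor that sets up the macrophage lineage, and AP-1 acts on many genes of activated macrophages. RefSeq promoter sequence (GRCr8) was at hand for Cd68, Csf1r, Gpnmb and Cd14 among the measured genes. The 250 bases before the start of each, on its own strand, are shown because 3 of these genes were higher in MSCT colon and Cd14 was not. Both strands were searched for GAGGAA (the core of a PU.1 site, TTCCTC on the other strand), TGANTCA (AP-1), TTGCNNAA (C/EBP) and CACGTG (the E-box of the MITF and TFEB family). Capitals mark the matches, and the windows are chr10:54882442-54882691 (minus strand) for Cd68, chr18:56834129-56834378 (plus strand) for Csf1r, chr4:79340878-79341127 (plus strand) for Gpnmb and chr18:28611159-28611408 (minus strand) for Cd14.
Cd68: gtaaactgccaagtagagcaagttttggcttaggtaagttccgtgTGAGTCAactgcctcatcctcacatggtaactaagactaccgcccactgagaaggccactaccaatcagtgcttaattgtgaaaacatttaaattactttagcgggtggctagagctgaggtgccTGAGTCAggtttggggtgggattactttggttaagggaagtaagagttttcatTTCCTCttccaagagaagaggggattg
Csf1r: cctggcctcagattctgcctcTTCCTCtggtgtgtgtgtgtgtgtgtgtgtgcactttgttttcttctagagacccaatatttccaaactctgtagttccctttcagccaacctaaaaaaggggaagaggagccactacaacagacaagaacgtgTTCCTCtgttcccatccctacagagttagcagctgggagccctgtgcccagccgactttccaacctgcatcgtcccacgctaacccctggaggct
Gpnmb: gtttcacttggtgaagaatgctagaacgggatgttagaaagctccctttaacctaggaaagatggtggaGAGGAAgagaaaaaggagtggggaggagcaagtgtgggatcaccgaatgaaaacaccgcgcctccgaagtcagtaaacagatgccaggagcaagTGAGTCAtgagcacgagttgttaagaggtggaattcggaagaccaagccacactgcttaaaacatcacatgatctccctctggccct
Cd14: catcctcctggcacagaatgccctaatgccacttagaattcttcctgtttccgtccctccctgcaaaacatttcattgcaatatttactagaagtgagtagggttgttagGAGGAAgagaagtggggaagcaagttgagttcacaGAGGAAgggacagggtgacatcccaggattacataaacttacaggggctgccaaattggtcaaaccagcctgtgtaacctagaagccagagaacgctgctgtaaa

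Each of the 4 windows held GAGGAA or its complement, which 23.3% of all 33469 promoters of the table hold. It stood once in Cd68, 27 bases before the start, once in Gpnmb, at 181 bases, and at a pair of places in Csf1r (229 and 95 bases) and in Cd14 (140 and 105 bases). An AP-1 match, held by 6.34% of promoters, stood at 205 and 80 bases in Cd68 and at 87 bases in Gpnmb, each as TGAGTCA, and none was in the windows of Csf1r and Cd14. No C/EBP or E-box match lay in any of the 4 windows (9.22% and 5.59% of promoters hold one). Whether these letters bear on the differences between the groups was not tested. A match of letters is not a shown binding site.

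The growth factors and lineage regulators around Csf1r were read next. Neither ligand passed. Csf1 lay at 780 and 829 in control colon and at 489 and 822 in MSCT colon, a difference of -0.34 (standard error 0.31), and Il34 lay at 1920 and 2181 against 2840 and 2661, a difference of 0.43 (standard error 0.19, adjusted p = 0.478). Il34 did not overlap between the groups and Csf1 did. Of the 9 measured genes of the list, 6 were higher, 0 passed the screen and the median was 0.35. Over all 6968 named genes, 3885 were higher, which is the background for this count and those of the lists below. Cebpb, a transcription factor of myeloid cells, differed by 0.58 (standard error 0.74), with control arrays at 256 and 1125, and Csf2ra, a receptor chain for the growth factor GM-CSF, by 0.50 (standard error 0.29). The row of Spi1, which encodes PU.1, was blank on all 4 arrays.

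Among the Fc receptors and their signaling partners, Fcgr3a passed the screen. It encodes the low-affinity activating receptor for immunoglobulin G. Its intensity was 125 and 132 in control colon against 291 and 262 in MSCT colon, a difference of 1.10 (standard error 0.19, adjusted p = 0.260). The row of Fcgr3a lay in the dimmest 25% of rows (percentile 15.6), where the median SD between replicates was 0.47. Leaving those rows out removed it, and with trend and robust variance its standard error was 0.47. Fcgr2a lay at 286 and 294 against 300 and 509, a difference of 0.43 (standard error 0.31). Syk, the kinase that binds phosphorylated ITAMs, lay at 1104 and 1099 against 1603 and 1495, and its difference of 0.49 (standard error 0.18) was below the fold limit (adjusted p = 0.417). Plcg2, a phospholipase downstream of Syk that was picked out after its values were seen, was lower by 0.66 on the log2 scale (adjusted p = 0.375). Of the 11 measured genes of this list, 7 were higher and 1 passed the screen, and the median was 0.08. No row was matched to Trem2 or Fcgr1a.

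No gene of the endotoxin receptor complex around Cd14 passed the screen. Tlr4 differed by 0.20 (standard error 0.22), its partner Ly96 by -0.10 (standard error 0.21) and the adaptor Myd88 by 0.29 (standard error 0.19). Lbp, which carries endotoxin to Cd14, differed by 0.52 (standard error 0.38), with MSCT replicate 2 at 3511 and the other arrays between 1549 and 2100. Tlr2, the receptor for bacterial lipoproteins, differed by 0.71 (standard error 0.34). Of the 5 measured genes of the list, 4 were higher, and the median was 0.29. In the galectin list, too, none of 8 genes passed, 7 were higher and the median was 0.21. Lgals3bp, a secreted protein that binds Lgals3, lay at 2052 and 1949 in control colon and at 3394 and 3024 in MSCT colon, a difference of 0.68 (standard error 0.19, adjusted p = 0.338). Lgals7, a galectin of squamous epithelium, differed by 0.46 (standard error 0.62).

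**Figure D3:**
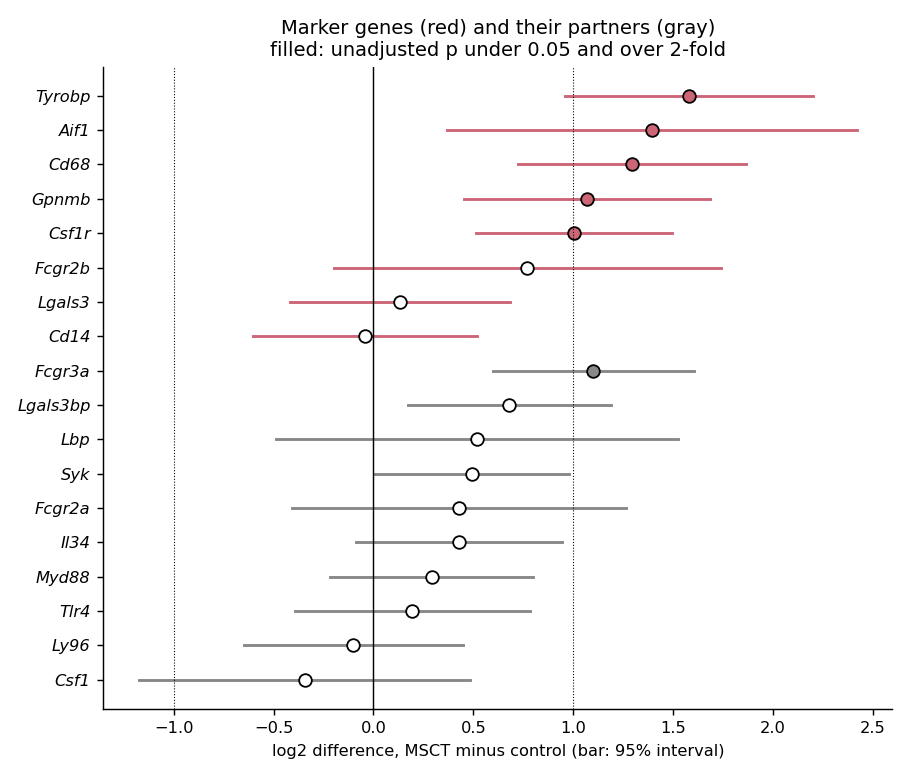
Log2 difference, MSCT minus control, of the 8 marker genes (red) and of 10 ligands, receptors and signaling partners (gray), with the 95% interval of limma as a bar and a filled point where the gene passed the screen. Dotted lines mark 2-fold. The intervals of Tyrobp, Aif1, Cd68, Gpnmb, Csf1r, Fcgr3a and Lgals3bp lie above 0, that of Syk starts at 0, and those of Cd14, Tlr4, Ly96 and Lgals3 lie around 0.

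In the list of integrins, complement receptors and C1q, no integrin was measured. The 7 measured genes were C1qa, C1qb, C1qc, Laptm5, Cd53, Coro1a and C5ar1. All 7 were higher, 4 passed the screen, 6 had an unadjusted limma p under 0.05, and the median was 1.07. C1qa and C1qb encode chains of complement C1q, which is made by tissue macrophages. C1qb lay at 587 and 594 in control colon and at 1577 and 2046 in MSCT colon, a difference of 1.61 (standard error 0.22), and C1qa at 1224 and 988 against 2853 and 2507, a difference of 1.28 (standard error 0.22). Laptm5, a lysosomal membrane protein of white blood cells, differed by 1.33 (standard error 0.20). The fourth was Cd53, a tetraspanin of white blood cells, at 1.07 (standard error 0.27), which failed without control replicate 2 (0.93) and without MSCT replicate 1 (0.81), and by the methods' t-test, and C1qc, the third C1q chain, lay just under the fold limit at 0.91 (standard error 0.22). Coro1a, at 0.99 (standard error 0.34), did not pass either. C5ar1, the only complement receptor measured, differed by 0.38 (standard error 0.27), and its groups overlapped. No row was matched to Ptprc (CD45), Itgax or Itgb2, and the rows of Itgam and C3ar1 were blank.

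Among 6 measured scavenger and uptake receptors, 4 were higher and 1 passed the screen, with a median of 0.62. This was Clec10a, a galactose-binding lectin of macrophages and dendritic cells, at 390 and 300 in control colon and 1000 and 1098 in MSCT colon. Its difference was 1.62 (standard error 0.23, adjusted p = 0.257). In the lysosomal list, 12 of 19 measured genes were higher and 7 lower, 1 passed the screen and the median was 0.13. The gene past the screen was Ctsk, a collagen-degrading cathepsin, at 1131 and 820 against 1887 and 2452, a difference of 1.16 (standard error 0.27), and it failed the screen without control replicate 2 (0.93) and without MSCT replicate 2 (0.97), and by the methods' t-test.

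Of the monocyte chemokines and receptors, 5 of 8 measured genes were higher and 1 passed the screen (median 0.22). Ccr2, the receptor by which blood monocytes enter tissue, lay at 117 and 123 in control colon and at 241 and 306 in MSCT colon. The difference was 1.17 (standard error 0.22, adjusted p = 0.270). The row of Ccr2 was a dim one, at percentile 14.6 of all rows by mean intensity, below the row of Fcgr3a. As for Fcgr3a, leaving the dimmest rows out removed Ccr2. With trend and robust variance its standard error was 0.48.

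Cx3cl1, the ligand of the receptor that marks resident gut macrophages, was picked out after its values were seen. It lay at 3720 and 3533 in control colon and at 1906 and 2098 in MSCT colon, a difference of -0.86 (standard error 0.19, adjusted p = 0.298) that did not reach the fold limit. Both MSCT arrays were below both control arrays, but the gene was picked with its values known, so this adds no support. The receptor itself, Cx3cr1, lay at 133 and 155 in control colon against 163 and 93.2 in MSCT rats, so that the groups overlapped, and its difference was -0.22 (standard error 0.33, adjusted p = 0.809).

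Of 9 measured macrophage activation products, 7 were higher and 3 passed the screen (median 0.24). Il1rn, the natural inhibitor of interleukin-1, lay at 290 and 209 in control colon and at 692 and 954 in MSCT colon, a difference of 1.72 (standard error 0.29, adjusted p = 0.260). Retnla, a secreted protein of macrophages activated by interleukin-4 and interleukin-13, lay at 949 and 736 against 2609 and 1954, a difference of 1.43 (standard error 0.26, adjusted p = 0.267). The third was Tgfb1, a suppressive cytokine made by many cells, at 560 and 627 against 1143 and 1590, a difference of 1.19 (standard error 0.25, adjusted p = 0.289), which was 0.95 and so under the fold limit without MSCT replicate 2. For all 3 genes both MSCT arrays were above both control arrays, as they were in 21.3% of all rows. The screen by which these genes were picked favors this, so it adds no support. Of the genes that did not pass, Chi3l1 (-0.86, standard error 0.41) and Slc40a1 (-0.41, standard error 0.20) were lower. In both, the MSCT arrays were below both control arrays. Arg1 differed by 0.36 (standard error 0.33) and its groups overlapped. Hmox1 differed by 0.24, Ptgs2 by 0.23 and Slc11a1 by 0.09. Nos2, Il1b, Tnf, Il6, Il10 and Il12b, the other 6 of the 15 genes listed, were blank on all 4 arrays, as were 27.5% of the 9747 rows with a gene name, and the rule for blank rows is not described in the sources used here.

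Together, 82 genes of the lists around the markers were measured. Of these, 59 were higher, 11 passed the screen as higher and 0 as lower, and the median difference was 0.26, below that of the 8 marker genes (1.04). Of all 6968 named genes, 3885 were higher and 3.13% passed the screen as higher, with a median of 0.05.

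Other cell types of the colon wall were read from marker lists. Epithelium and smooth muscle, which make up most of the tissue, had all their measured markers within 2-fold. The 7 epithelial genes had a median of 0.12 and 0 passed the screen, with the largest differences in Cdx2 (0.48, standard error 0.30) and Krt20 (0.39, standard error 0.18), and their summed intensity was 120648 to 123466 for control and 127921 to 134092 for MSCT rats. The 5 smooth muscle genes had a median of 0.02, with Cnn1 at 0.08 and Acta2 at -0.04, and a summed intensity of 141287 to 171485 against 154976 to 159204. Of the 5 fibroblast genes, 0 passed the screen, and the median was 0.62, with Pdgfrb at 0.86 (standard error 0.35) and Col3a1 at 0.78 (standard error 0.32), and the sums were 26295 to 40261 against 43454 to 45734. The endothelial genes Pecam1 and Kdr differed by 0.29 and 0.05 (sums 847 to 1304 against 1112 to 1419).

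Lists of other white blood cells held the 9 genes of other cell types that passed the screen. In the list of dendritic cell and MHC class II genes, 7 of 8 measured genes were higher and 4 passed the screen (median 0.95, sums 12464 to 16821 against 26924 to 32207). Macrophages share the class II genes, and all 4 that passed were class II genes. RT1-Db1, RT1-Ba and RT1-Bb, chains of the class II molecules that present antigen, differed by 1.92 (standard error 0.34), 1.63 (standard error 0.25) and 1.38 (standard error 0.25), and the fourth was RT1-Da (1.01, standard error 0.30), which failed without control replicate 2 (0.69) and without MSCT replicate 2 (0.87), and by the methods' t-test. Probes of these related genes may share signal. Cd74, which is bound to class II molecules, differed by 0.88 (standard error 0.24) and did not pass. Nor did the dendritic cell genes Batf3 (0.60, standard error 0.28), Ccr7 (0.27, standard error 0.65) and Itgae (-0.17, standard error 0.22). Batf3, Ccr7 and Itgae lay in the dimmest 25% of rows. Of 6 measured T and NK cell genes, 3 passed the screen, namely Gzmb (1.92), Zap70 (1.89) and Nkg7 (1.72), and Zap70 failed the screen without control replicate 1 and without control replicate 2, by its unadjusted p. All 3 failed it by the methods' t-test, and all 3 lay in the dimmest 25% of rows (percentiles 11.3, 17.1 and 20.9), so that leaving those rows out removed them. The sums of this list were 891 to 1041 against 1791 to 2028 and its median was 1.05. Cd3g, a chain of the T cell receptor complex, differed by 0.13, Cd8a, found on T cells and in the rat on NK cells, by 0.01, and Cd4, which rat macrophages carry as well as T cells, by 0.37.

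Of 5 mast cell genes, 1 passed the screen, with a difference of 4.41, the median was 0.86 and the sums were 1053 to 1326 against 3099 to 4140. Its row (NM_172044) is Mcpt1 in the RefSeq table, while the fold change of the row, 21.28, is the one that the study lists for Mcpt2. Which of these related mast cell proteases the row measures is not settled. This row lay at 104 and 100 in control colon and at 2530 and 1871 in MSCT colon, and made up most of the difference in the sums. The other measured mast cell genes were Tpsb2 (1.03, standard error 0.48), Hdc (0.86, standard error 0.45), Kit (0.18, standard error 0.31) and Tpsab1 (-0.09, standard error 0.29). Single genes stood for the other lists. Mzb1, of plasma cells, differed by 1.26 (standard error 0.19, 99.4 to 111 against 244 to 260), and S100a9, of neutrophils, by 0.54 (standard error 0.24, 145 to 204 against 249 to 253) without passing. Over the 40 measured genes of these lists, 35 were higher, 9 passed the screen as higher and 0 as lower, with a median of 0.36. Over all 6968 named genes, 3885 were higher and 3.13% passed the screen as higher, with a median of 0.05. The part of the other cell types in the values of the marker genes was not tested.

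**Figure D4:**
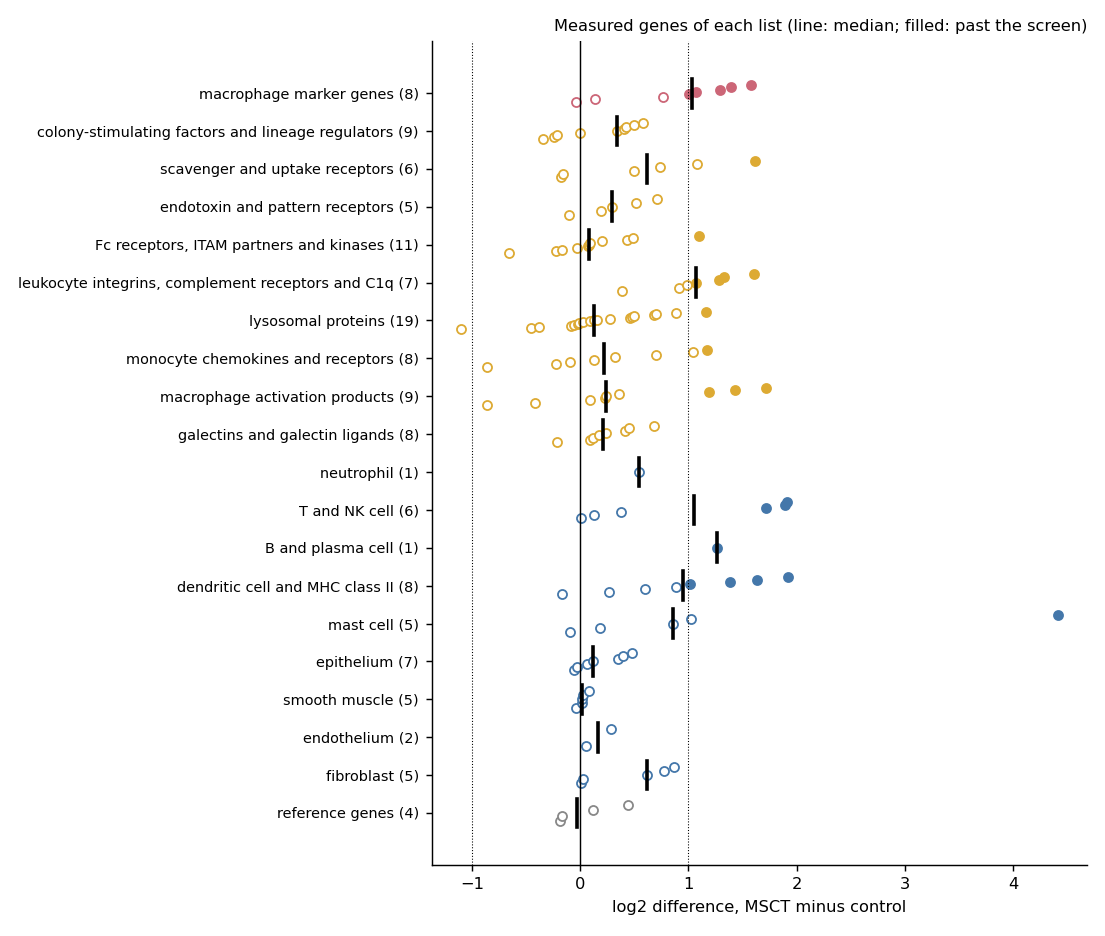
Log2 difference, MSCT minus control, of every measured gene of each list, with the number measured in brackets, the marker genes in red, lists around them in yellow, other cell types in blue and reference genes in gray. Filled points passed the screen and black lines are medians. The median is above 1 for the marker genes (1.04), T and NK cells (1.05) and the single plasma cell gene (1.26). It is 1.07 in the list of integrins, complement receptors and C1q, where no integrin was measured. For smooth muscle it is near 0 (0.02).

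Of the reference genes, Hprt1 differed by 0.44, Actb by 0.12, B2m by -0.17 and Gapdh by -0.19, and none passed the screen. The array medians of all rows lay between 848 and 893 in intensity, and log2 values over all rows correlated at 0.953 and 0.964 within the groups and at 0.934 to 0.959 between them. Quantile normalization and equal array medians left the same count of 5 marker genes past the screen.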

How the data were processed

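Colon RNA of control and MSCT rats was hybridized to one-color arrays, 2 per group. Each array was taken as 1 rat, since nothing in the sources used here says that replicates share an animal. The authors deposited linear intensity values per RefSeq transcript. RMA is named in the submitters' processing notes with no role, and how probes were combined, how arrays were scaled and when a value was left blank is not given in the sources used here. Of 26420 rows, 18350 were measured on every array and 8070 were blank throughout. Accessions were matched without version numbers to a RefSeq table (GRCr8), which named 7068 measured rows (38.5%, 6968 genes), and the row of highest mean stood for a gene with several.

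Values were taken as log2 with no pseudocount, scaling or filter. MSCT was compared with control with the lmFit and eBayes functions of limma 3.58.1 under R 4.3.3 (18350 rows, Benjamini-Hochberg adjustment over them), which was tested on simulated data. A gene passed the screen at an unadjusted p under 0.05 and over 2-fold. With 2 arrays per group, their number limits the precision. The members and lists were chosen with earlier results of these data known. Named were all marker genes, partners set by role, and of each list up to 3 genes past the screen or else the 2 largest differences. Cd53, C1qc, Plcg2, Cx3cl1, Cx3cr1, Cd3g, Cd8a, Cd4, RT1-Da and Cd74 were named after their values were seen. To fill out their lists, Coro1a, C5ar1, Chi3l1, Slc40a1, Arg1, Hmox1, Ptgs2, Slc11a1, Batf3, Ccr7, Itgae, Tpsb2, Hdc, Kit and Tpsab1 were also given with values known. They are not in the sign count of named genes below. Alternatives were quantile normalization, the methods' t-test, dropping dim rows, equal array medians, trend and robust variance, a replicate block, a 1.5-fold limit and leaving out each array. Histology and RT-PCR were not analysed here. A gene of the lists is not reported here and was left out of their counts.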

Additional observations from a re-analysis of the deposited data

How the results depend on the processing

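The count of 5 marker genes past the screen was 4 by the methods' t-test and 5 after quantile normalization, after equal array medians, without the dimmest 25% of rows, with trend and robust variance and with a replicate block. Without the dimmest 50% of rows, which removed 3 of the 8 markers, 3 marker genes passed the screen, 3 had an unadjusted p under 0.05 and 3 did not overlap between groups, and the counts were 5 for the lists around the markers, 3 for other cell types and 143 for all rows, since fewer genes were tested. Other cell types gave 5 genes by the methods' t-test and 5 without the dimmest 25% of rows, and all rows gave 191 by the methods' t-test. A limit of 1.5-fold gave 18 genes in the lists around the markers and 802 rows. Leaving out 1 array at a time, 2 to 6 marker genes passed, and 459 to 901 rows were higher past the screen (901 without control replicate 2). The cause was not tested. The sign of 13 named genes with small or noisy differences turned in these fits, which ranged from -0.014 to 0.28 for Lgals3, -0.16 to 0.076 for Cd14, -0.49 to 1.64 for Cebpb, -0.42 to 1.34 for Lgals7, -0.72 to 0.032 for Csf1, -0.23 to 0.030 for Ly96, -0.62 to 0.18 for Cx3cr1, -0.25 to 0.51 for Cd3g, -0.59 to 0.60 for Cd8a, -0.26 to 0.18 for Acta2, -0.10 to 0.26 for Cnn1, -0.039 to 0.61 for Pecam1 and -0.17 to 0.28 for Kdr. Arrays of the same number deviated together (r = 0.234 across rows), but with 2 numbers this does not show pairing. With the replicate block, 6 marker genes had an unadjusted limma p under 0.05, Fcgr2b being added, and 5 passed the screen. The row of lowest mean gave no other value, since no named gene had a second measured row.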
